A study of Mus musculus with 8 samples.

Results

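Matrix metalloproteinases (MMPs) and their tissue inhibitors (TIMPs) were followed in mouse CJ7 embryonic stem (ES) cells in which the zinc-finger transcription factor Sall4 had been depleted. The family was taken as 10 genes, Mmp2, Mmp3, Mmp9, Mmp10, Mmp12, Mmp13, Mmp14, Timp1, Timp2 and Timp3, out of 18193 genes that had a symbol on the array. The family was chosen by the measured fall of Mmp12 against control, so that fall is a description, and where Mmp12 enters a count of genes past the test against control, nothing is read from it. For each gene the brightest probe set was used, selected on its mean log2 intensity over the 8 arrays. A present, marginal or absent detection call accompanied every value. Of the 10 genes, 8 were called present on at least 2 arrays and so were tested among 14027 genes, while Mmp3 and Mmp13 were not.

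The 8 arrays formed 4 groups of 2. All 4 groups were CJ7 cells that took up lentivirus over 24 hours (polybrene, 2.5 mcg/mL) and were then kept in ES cell medium with LIF and puromycin at 2 mcg/mL until 48 hours after infection. Control cells received a virus with no short hairpin RNA (shRNA), so no group carried an unrelated shRNA. Depleted cells received an shRNA directed at both Sall4 isoforms. Sall4a-only and Sall4b-only cells received the same shRNA plus an shRNA-immune cDNA of 1 isoform, and are also called add-back cells here. The labels speak of biological replicates without saying how the cultures were kept apart, so p-values measure the spread between arrays, which may in part be technical. With 2 arrays a group, an exact two-sided permutation test cannot give a p below 0.333.

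Sall4 was read by 2 probe sets, both lower on the depleted arrays (10489 and 10333 on the brighter, 137 and 156 on the dimmer) than on the control arrays (15077 and 13778, 362 and 334). Neither add-back group was back at the control level on either probe set. The sources used here do not say where these probe sets lie relative to the added cDNAs, so they do not check the add-back labels. All 10 ES cell markers examined were called present on every array. Sall4a-only replicate 1 stood apart from the other arrays: 1160 genes differed by over 1 log2 between the Sall4a-only replicates, against 420 for control, 100 for depleted and 133 for Sall4b-only replicates. Fibroblast and feeder markers (22 on the array, of which 18 passed the detection filter) averaged -1.86 log2 against the control mean on that array and 0.077 on Sall4a-only replicate 2. They averaged 0.46 and 0.35 on the depleted and -0.77 and -0.41 on the Sall4b-only arrays. Their summed intensity was 74331 and 66324 on the control, 94690 and 89959 on the depleted, 38139 and 85826 on the Sall4a-only and 60427 and 69668 on the Sall4b-only arrays. Among these markers Lum, Fap and Col6a2 were present on 0 arrays. In bulk RNA, fewer cells of a type and less RNA per cell cannot be told apart.

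MMPs are zinc-dependent endopeptidases made as inactive precursors that are cleaved to become active, and they cut collagens, elastin, proteoglycans and cell surface proteins. TIMPs bind the active enzymes and block them. In early mouse development, MMPs and TIMPs are known mainly from trophoblast invasion and from the remodelling of basement membranes. Several MMP genes lie side by side on mouse chromosome 9, and their promoters are known for sites of the transcription factor AP-1, a dimer of Fos and Jun proteins.

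The promoters of the 4 members on chromosome 9 are shown because Mmp12 and Mmp10, the members furthest below control in the add-back cells, lie there beside Mmp3 and Mmp13. No measurement in these data bears on binding at them. RefSeq promoter windows (build GRCm38.p6) were matched for 8 of the 10 members, with 2 windows for Mmp12, and Mmp2 and Mmp9 were not matched. The AP-1 motif TGAGTCA or its reverse complement TGACTCA was searched in the 250 bases before each start, which covers both strands. It was found in 4 of the 9 member windows, those of Mmp13, Mmp3, Mmp10 and the second window of Mmp12, against 1466 of all 32851 windows (4.46%). A match describes the letters only and is not a site shown to be bound. The motif began 35 bases before the start in Mmp13, 44 in Mmp12, 46 in Mmp3 and 63 in Mmp10. The first Mmp12 window and the windows of Mmp14, Timp1, Timp2 and Timp3 did not hold these letters. The 120 bases before the start of the 4 genes are shown 5′ to 3′ on the plus strand, with the motif in capitals. Of the 2 Mmp12 windows, the second is shown because it holds the motif, and the first is not shown. The stretches lie at chr9:7347254-7347373 for Mmp12, chr9:7502222-7502341 for Mmp10, chr9:7445702-7445821 for Mmp3 and chr9:7272394-7272513 for Mmp13.
Mmp12: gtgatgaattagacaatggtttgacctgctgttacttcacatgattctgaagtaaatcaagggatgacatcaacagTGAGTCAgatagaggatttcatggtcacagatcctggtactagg
Mmp10: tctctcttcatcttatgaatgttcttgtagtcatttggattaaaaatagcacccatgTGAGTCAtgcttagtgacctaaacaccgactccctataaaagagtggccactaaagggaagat
Mmp3: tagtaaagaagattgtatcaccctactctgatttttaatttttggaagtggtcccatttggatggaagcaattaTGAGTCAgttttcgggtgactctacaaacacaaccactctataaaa
Mmp13: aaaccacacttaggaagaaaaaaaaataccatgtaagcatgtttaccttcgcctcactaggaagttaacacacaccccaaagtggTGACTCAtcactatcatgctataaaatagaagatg

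By the RefSeq gene order on that chromosome, 10 MMP genes follow each other in the order Mmp13, Mmp12, Mmp1b, Mmp3, Mmp1a, Mmp10, Mmp8, Mmp27, Mmp20 and Mmp7. Mmp10 was called present on 7 arrays and Mmp12 on 4. Mmp3 and Mmp13 were each called present on 1, and Mmp1a, Mmp1b, Mmp7, Mmp8 and Mmp20 on 0. Mmp27 had no probe set in the annotation used here. Within this run of genes, therefore, Mmp12 and Mmp10 alone passed the detection filter, and they are not direct neighbours.

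Mmp12 encodes macrophage metalloelastase, an enzyme best known for cutting elastin. Its intensity was 285 and 293 on the control arrays, 77.1 and 69.3 on the depleted, 30.0 and 34.5 on the Sall4a-only and 30.1 and 40.4 on the Sall4b-only arrays. Both control arrays were above both depleted arrays, which were above all 4 add-back arrays, and the add-back groups overlapped. The group means were 289 ± 5.74 (SD, n = 2) for control and 73.2 ± 5.53 for depleted cells, and they were 32.2 ± 3.17 with Sall4a and 35.2 ± 7.30 with Sall4b added back. It was called present on the 4 control and depleted arrays and absent on the 4 add-back arrays, where its values nevertheless lay above the lowest intensity called present on any array (11.4 to 12.8).

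Depleted cells thus had 3.95-fold less Mmp12 signal than control cells. Against the depleted cells themselves, Mmp12 was at least 2.27-fold lower with Sall4a and at least 2.10-fold lower with Sall4b added back, where "at least" rests on the absent calls. The log2 differences were -1.19 (SE 0.17, limma adjusted p = 0.210) and -1.07 (SE 0.17, adjusted p = 0.231), so neither passed the threshold of 0.05. Without Sall4a-only replicate 1, the Sall4a-only difference from depleted cells was -1.09. Between the add-back groups both were called absent, and no fold is given.

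**Figure D1:**
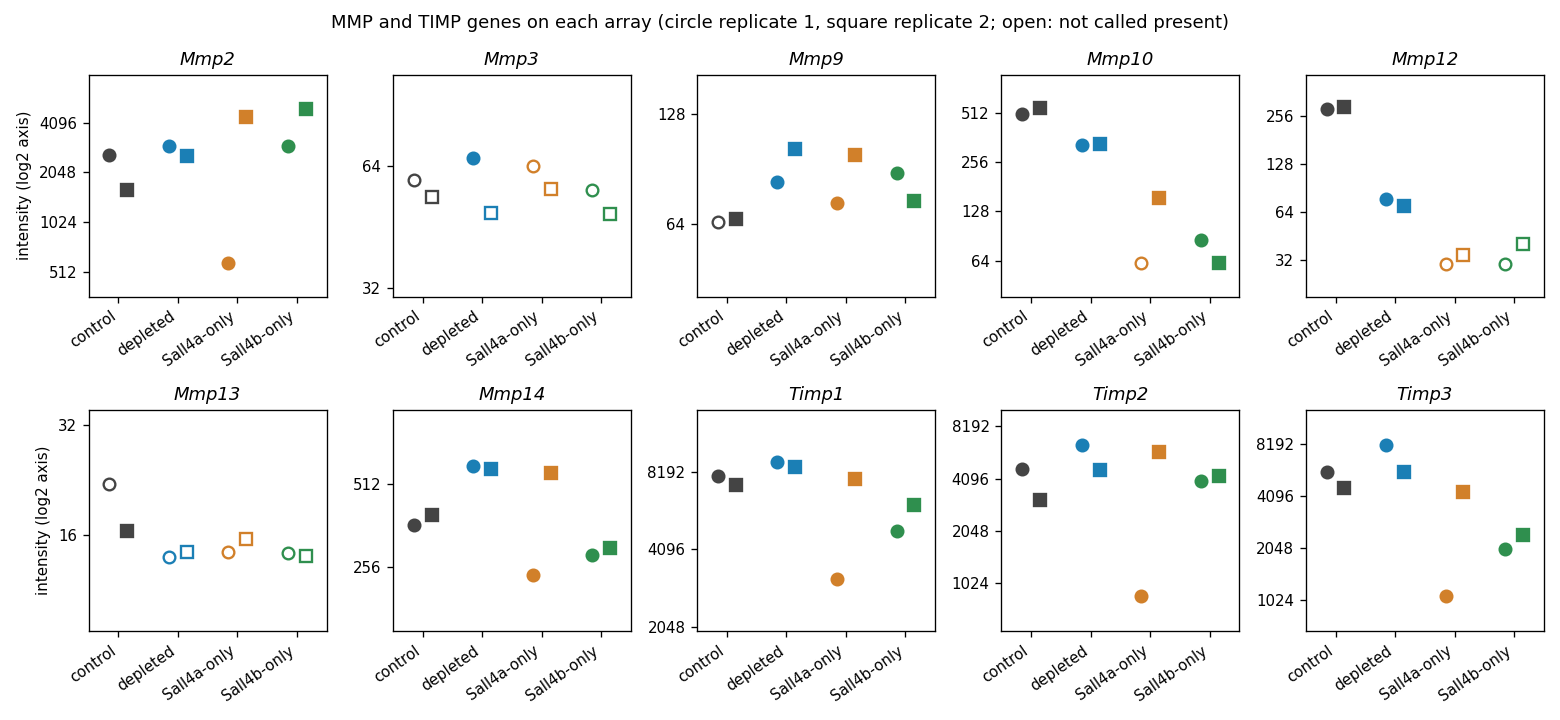
Intensity of each of the 10 genes on each array (vertical axis, log2 scale with a range of its own per gene) in the 4 groups (horizontal axis). Circles are replicate 1, squares replicate 2 and open symbols values not called present. Mmp12 and Mmp10 step down from control to depleted to the add-back arrays, while Sall4a-only replicate 1 lies far below replicate 2 for Mmp2, Timp2 and Timp3.

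Mmp10, or stromelysin-2, cuts proteoglycans and basement membrane proteins and can activate other MMPs. Its intensity was 510 and 551 on the control arrays, 329 and 330 on the depleted, 61.7 and 156 on the Sall4a-only and 86.1 and 61.6 on the Sall4b-only arrays. It was present on every array except Sall4a-only replicate 1. As for Mmp12, control arrays were highest, depleted arrays lay between and all 4 add-back arrays were lowest, with the add-back groups overlapping.

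Control cells had 1.61-fold more Mmp10 signal than depleted cells (log2 difference -0.69, SE 0.42, limma adjusted p = 0.791), 5.41-fold more than Sall4a-only cells (-2.43, SE 0.42, adjusted p = 0.262) and 7.28-fold more than Sall4b-only cells (-2.86, SE 0.42, adjusted p = 0.110). None of these passed when all 8 arrays shared an estimate of the spread. With both Sall4a-only arrays left out of the fit, the SE dropped to 0.18 and the Sall4b-only difference passed (adjusted p = 0.00891). Without Sall4a-only replicate 1, the Sall4a-only difference from control was -1.77 (adjusted p = 0.0623). Without replicate 2 it was -3.10 (adjusted p = 0.0112).

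Against depleted cells, Mmp10 was 3.36-fold lower with Sall4a and 4.53-fold lower with Sall4b added back (log2 differences -1.75 and -2.18, SE 0.42, limma adjusted p = 0.402 and 0.279). Leaving out both Sall4a-only arrays, the Sall4b-only difference passed (adjusted p = 0.0170). Without Sall4a-only replicate 1, Mmp10 in Sall4a-only cells differed from depleted cells by -1.08 log2 (adjusted p = 0.169).

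The other stromelysin, Mmp3, and the collagenase Mmp13 stayed near the limit of detection. Mmp3 intensity ran from 48.7 to 67.0 over the 8 arrays, with a present call on depleted replicate 1 and a marginal call on Sall4b-only replicate 1. Mmp13 ran from 13.8 to 22.1 and was called present on control replicate 2 alone. Mmp3 and Mmp13 share the promoter motif shown above with Mmp10 and with 1 of the 2 Mmp12 windows. They were called present on too few arrays to be tested.

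The gelatinases Mmp2 and Mmp9 cut denatured collagen and basement membrane collagen. Mmp2 intensity was 2601 and 1598 on the control arrays, 2964 and 2589 on the depleted, 584 and 4449 on the Sall4a-only and 2939 and 4969 on the Sall4b-only arrays. The Sall4a-only replicates lay on opposite sides of every other array but Sall4b-only replicate 2, which was the highest. In Sall4b-only cells Mmp2 was above both control arrays, with a log2 difference of 0.91 (SE 0.89, limma adjusted p = 0.670), in the opposite direction to Mmp12 and Mmp10. In Sall4a-only cells it was -0.34 (SE 0.89, adjusted p = 0.950) with both replicates and 1.13 without replicate 1.

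Mmp9 was dim and varied little. Its intensity was 64.9 (not called present) and 66.3 on the control arrays, 83.3 and 102.6 on the depleted, 73.2 and 99.0 on the Sall4a-only and 88.3 and 74.0 on the Sall4b-only arrays. All 6 arrays with the shRNA were above both control arrays. The log2 differences from control were 0.49 (depleted), 0.38 (Sall4a-only) and 0.30 (Sall4b-only), each with SE 0.19 and limma adjusted p of 0.611, 0.647 and 0.505. Its second, dimmer probe set was present on 2 arrays and differed from control by 0.13, 0.0062 and 0.036 log2 in that order.

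Mmp14 encodes the membrane-bound enzyme that activates the Mmp2 precursor at the cell surface, with Timp2 as the bridge. Its intensity was 363 and 395 on the control arrays, 599 and 582 on the depleted, 238 and 562 on the Sall4a-only and 282 and 301 on the Sall4b-only arrays. Depleted arrays were the highest and Sall4b-only arrays lay below control. All 3 of its probe sets had the depleted arrays' mean above and the Sall4b-only mean below control. The log2 difference from control was 0.64 in depleted (SE 0.37, limma adjusted p = 0.767) and -0.38 in Sall4b-only cells (SE 0.37, adjusted p = 0.667). The Sall4a-only mean differed by -0.048, but by 0.21 on the probe set that differed most and by 0.57 without replicate 1. Between Sall4b-only and depleted cells the difference was -1.02 (SE 0.37, adjusted p = 0.528). It passed when both Sall4a-only arrays were left out (SE 0.11, adjusted p = 0.0366).

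Of the inhibitors, Timp3 is the one that binds to the extracellular matrix, and it also blocks several ADAM proteases. Its intensity was 5705 and 4574 on the control arrays, 8144 and 5696 on the depleted, 1085 and 4356 on the Sall4a-only and 2029 and 2440 on the Sall4b-only arrays. All 4 add-back arrays were below both control arrays, and Sall4a-only replicate 2 was only just below them. The log2 difference from control was -1.23 with Sall4a (SE 0.61, limma adjusted p = 0.632) and -1.20 with Sall4b added back (SE 0.61, adjusted p = 0.411). Without Sall4a-only replicate 1 the Sall4a-only difference was -0.23. With both Sall4a-only arrays left out of the fit, the Sall4b-only difference had SE 0.22 and adjusted p = 0.0798. All 4 Timp3 probe sets were lower in both add-back groups, with log2 differences from -1.45 to -1.23 (Sall4a-only) and from -1.86 to -1.20 (Sall4b-only). Timp3 in depleted cells differed from control by 0.41 (SE 0.61, adjusted p = 0.947), with overlapping arrays.

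Timp1, a secreted inhibitor of most soluble MMPs, had intensities of 7885 and 7285 on the control arrays, 8951 and 8601 on the depleted, 3148 and 7673 on the Sall4a-only and 4824 and 6097 on the Sall4b-only arrays. Depleted arrays lay above and Sall4b-only arrays below control, by 0.21 and -0.48 log2 (SE 0.39, limma adjusted p = 0.961 and 0.597). Sall4a-only replicate 2 was within the control range, and replicate 1 was the lowest of all arrays. Timp2, the partner of Mmp14, had intensities of 4670 and 3096 on the control arrays, 6396 and 4591 on the depleted, 864 and 5813 on the Sall4a-only and 3994 and 4252 on the Sall4b-only arrays. Its groups overlapped control in all 3 comparisons. The Sall4b-only difference was 0.12 log2 (SE 0.82, adjusted p = 0.961) on the brightest of 6 probe sets, and the other 5 were below 0, down to -0.46. In Sall4a-only cells Timp2 differed by -0.76 (adjusted p = 0.844) and Timp1 by -0.62 (adjusted p = 0.704), and without replicate 1 by 0.61 and 0.018.

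**Figure D2:**
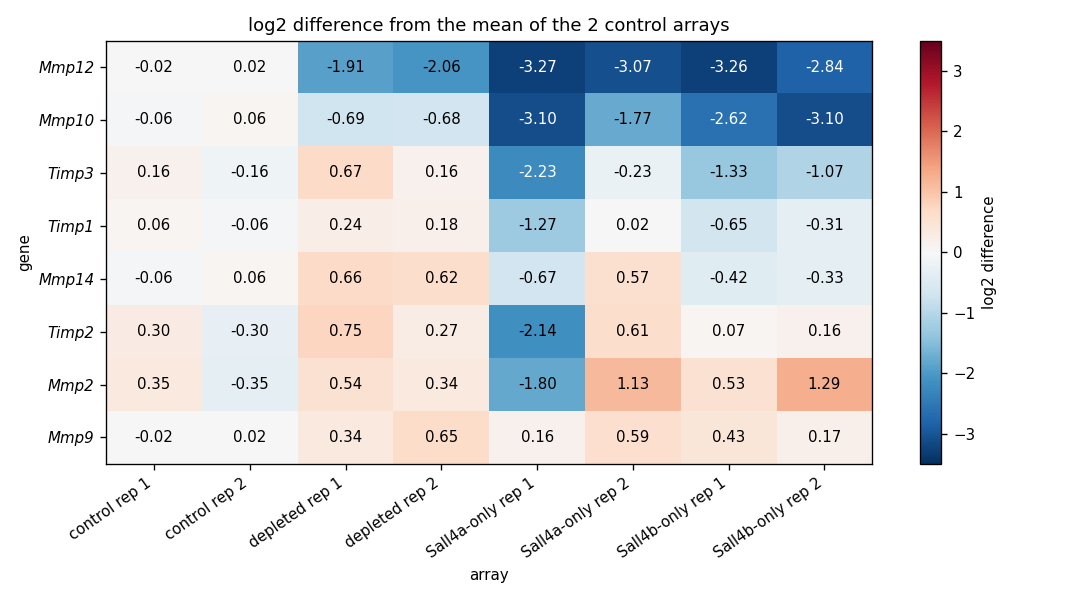
Log2 difference of each tested gene (rows) on each array (columns) from the mean of the 2 control arrays, in blue where lower and red where higher. Mmp12 and Mmp10 are below control on all 6 arrays with the shRNA, and Timp3, Timp1, Mmp14, Timp2 and Mmp2 are lowest on Sall4a-only replicate 1.

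**Figure D3:**
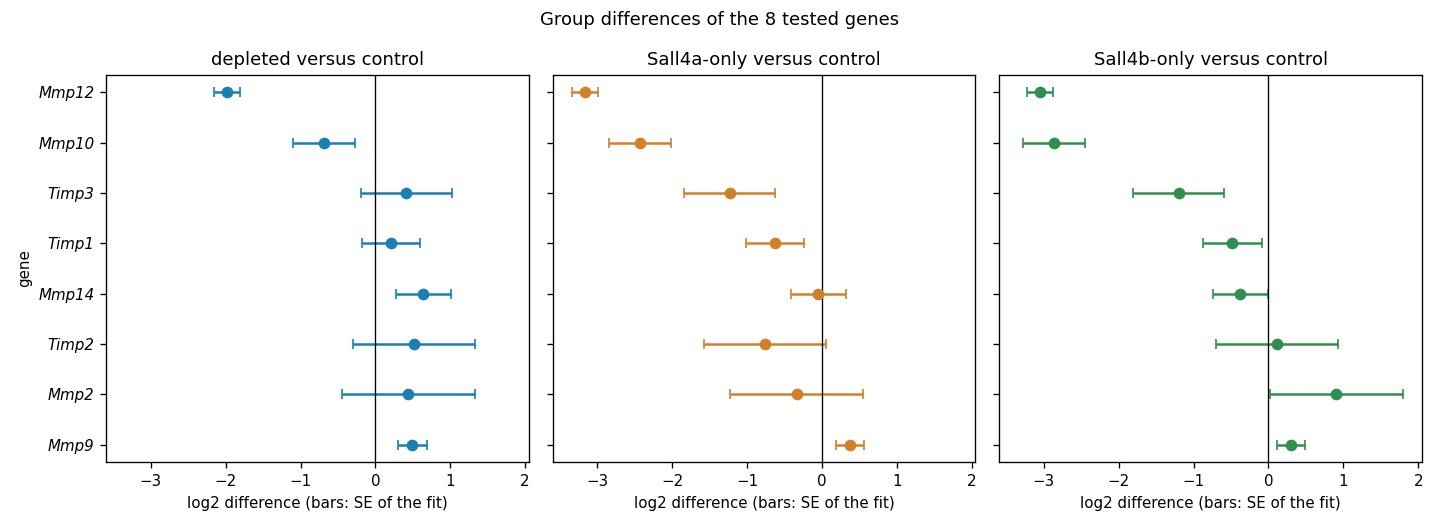
Log2 difference from control of the 8 tested genes (rows) in depleted, Sall4a-only and Sall4b-only cells, with points for the difference of group means and bars for the SE of the limma fit over all 8 arrays. Mmp12 at -1.98, -3.17 and -3.05 has the largest difference in each panel.

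Setting Mmp12 against its family, the log2 difference from control of Mmp12 minus the median of the other 7 tested members was -0.077 and 0.077 on the control arrays and -2.44 and -2.33 on the depleted arrays. It was -1.47 and -3.64 on the Sall4a-only and -2.84 and -2.52 on the Sall4b-only arrays. On Sall4a-only replicate 1 the family median was -1.80 and Mmp12 was at -3.27. In depleted cells Mmp12 and Mmp10 were the 2 tested members below control and the other 6 tested members had positive differences.

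Counts of members per comparison were read against all 14027 genes, and the comparisons share control or depleted arrays. In depleted against control cells, 0 of 8 members passed an adjusted p of 0.05 in limma (0% of all genes). At an unadjusted p under 0.05 there were 2 members and 1111 genes (7.92%). The arrays of the groups did not overlap for 2 members that were lower, Mmp10 and Mmp12 (19.6% of all genes), and for 3 that were higher, Mmp9, Mmp14 and Timp1 (21.5% of all genes). The median difference of the 8 members was 0.43 log2, against 0.0038 over all genes.

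In Sall4a-only against control cells, the count of members past the threshold was 1 (0.00713% of all genes), the Mmp12 on whose fall the family was chosen, and the count therefore says nothing about the family. At an unadjusted p under 0.05 there were 2 members and 1240 genes (8.84%). Non-overlapping arrays were lower for Mmp10, Mmp12 and Timp3 (12.2% of all genes) and higher for Mmp9 (17.8% of all genes). The members' median was -0.69, against 0.035 over all genes. Without Sall4a-only replicate 2, Mmp10 and Timp3 were past the threshold beside Mmp12, with 0.784% of all genes. That fit sets Sall4a-only replicate 1 alone against control and assumes that it varies like the other groups. Without replicate 1, 0 members passed. In Sall4b-only against control cells the count was also 1 (0.00713% of all genes), again Mmp12 on the contrast used for the choice. At an unadjusted p under 0.05 there were 2 members and 2112 genes (15.1%). Non-overlapping arrays were lower for 5 members, Mmp10, Mmp12, Mmp14, Timp1 and Timp3 (19.5% of all genes), and higher for Mmp2 and Mmp9 (32.2% of all genes). The median was -0.43, against 0.061. Without both Sall4a-only arrays, Mmp10 was past the threshold beside Mmp12, with 0.863% of all genes.

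In Sall4a-only against depleted cells, 0 members passed in limma (0% of all genes), while 3 members and 1096 genes (7.81%) had an unadjusted p under 0.05. The arrays lay apart for 5 lower members, Mmp10, Mmp12, Mmp14, Timp1 and Timp3 (12.3% of all genes), and for 0 higher ones (22.9% of all genes). Without Sall4a-only replicate 2, 5 members passed, Mmp10, Mmp14, Timp1, Timp2 and Timp3, with 2.05% of all genes. Here too Sall4a-only replicate 1 was alone in its group, and the spread came from the other groups. Without replicate 1, 0 passed. In Sall4b-only against depleted cells, 0 members passed (0% of all genes), and 4 members and 1243 genes (8.86%) had an unadjusted p under 0.05. The arrays lay apart for 6 lower members, those 5 and Timp2 (18.9% of all genes), and for 0 higher ones (37.8% of all genes). Without both Sall4a-only arrays, Mmp10 and Mmp14 passed, with 0.471% of all genes. The members' medians were -1.01 and -0.86, against 0.032 and 0.065 over all genes.

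Between the add-back groups, 0 members passed in limma (0% of all genes), with 0 members and 820 genes (5.85%) at an unadjusted p under 0.05. For 0 members did the arrays lie apart, lower (19.4% of all genes) or higher (14.6% of all genes). The differences of Sall4a-only minus Sall4b-only cells ran from -1.24 for Mmp2 to 0.43 for Mmp10. Mmp12 was absent on all 4 arrays, so its difference is not given. The Mmp10 difference had SE 0.42 and adjusted p = 0.951. Without Sall4a-only replicate 1 the differences were 1.10 for Mmp10 and 0.22 for Mmp2.

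Several members moved across arrays beside the fibroblast and feeder markers, and the part of those cells in the values was not tested. The 3 arrays on which those markers averaged lowest, Sall4a-only replicate 1 and both Sall4b-only arrays, were also the 3 lowest for Timp1, Timp3, Mmp14 and Mmp10. Timp2 and Mmp2 were lowest on Sall4a-only replicate 1, but on the Sall4b-only arrays they were 0.071 and 0.16 (Timp2) and 0.53 and 1.29 (Mmp2) above the control mean. Against the control mean, Mmp10 was at -3.10 and -1.77 on Sall4a-only replicates 1 and 2, and Mmp12 at -3.27 and -3.07. The fibroblast markers averaged -1.86 and 0.077 on those arrays. On replicate 2 that average joined markers that went both ways, with 6 of the 18 below the control mean. There Col5a2 was at 288, against 1964 and 1604 in control, and Postn at 588, against 204 and 154. On the depleted arrays, where those markers averaged 0.46 and 0.35, Mmp10 was at -0.69 and -0.68 and Mmp12 at -1.91 and -2.06.

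**Figure D4:**
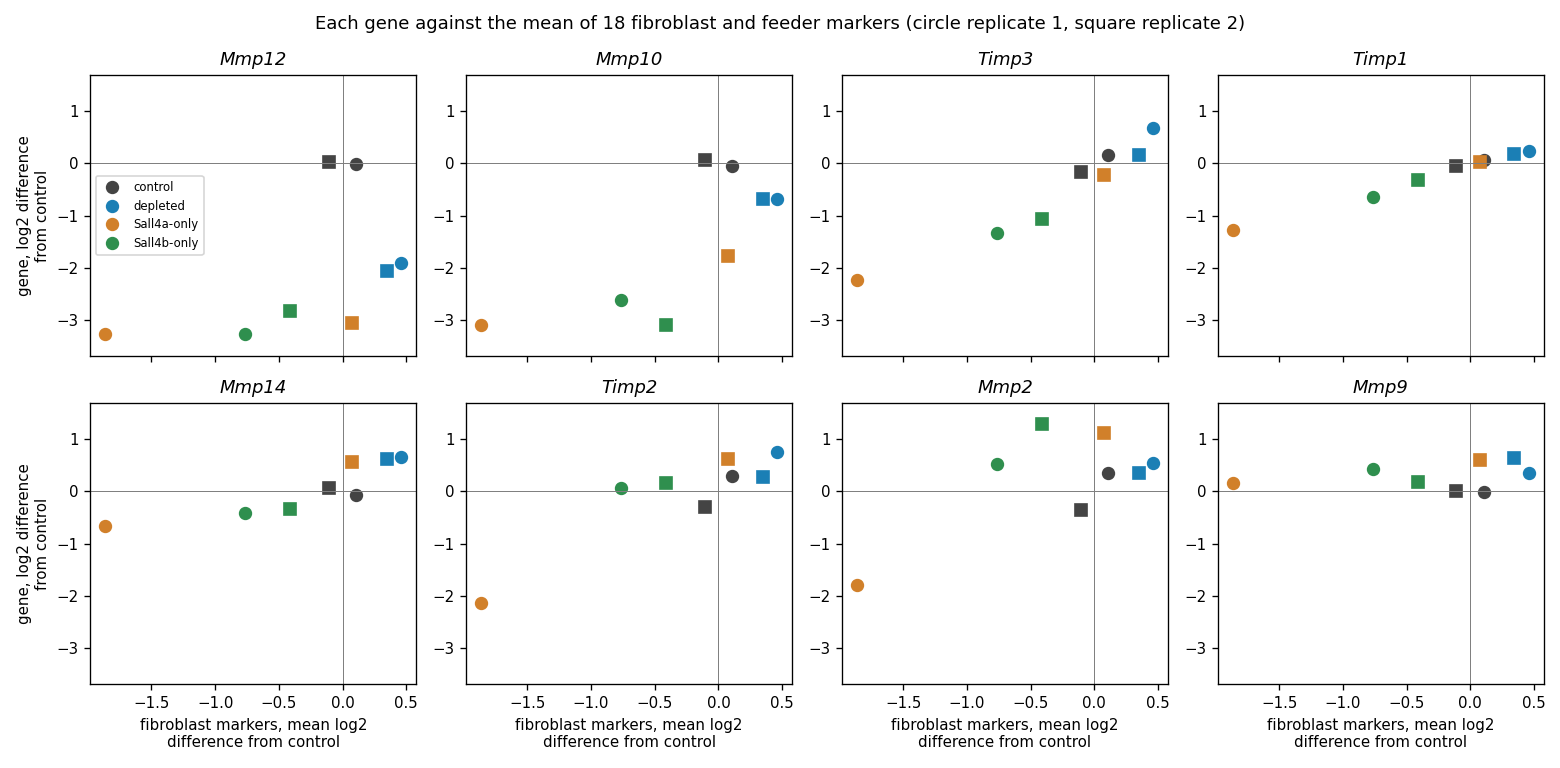
Log2 difference from control of each tested gene (vertical axis) against the mean log2 difference of 18 fibroblast and feeder markers (horizontal axis) on the 8 arrays, with circles for replicate 1 and squares for replicate 2. Timp1 and Timp3 are lowest on the arrays where the markers are lowest. Mmp12 is at -3.07 on Sall4a-only replicate 2, where the markers average 0.077 with 6 of the 18 below the control mean.

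Macrophages, the cells for which Mmp12 is named, were examined through 12 markers on the array. Adgre1, Ptprc, Aif1, Itgam, Cd163, Tyrobp and Fcgr1 were called present on 0 arrays. The other 5 passed the filter, and their mean difference from control ran from -0.61 to 0.33 log2 over the arrays. Summed intensity of the 12 was 3326 and 4367 on the control, 2187 and 2484 on the depleted, 3433 and 2743 on the Sall4a-only and 2340 and 2067 on the Sall4b-only arrays. Csf1r, the receptor for macrophage colony-stimulating factor, which trophoblast also expresses, had intensities of 211 and 414 in control, 78.5 and 156 in depleted, 399.5 and 167 with Sall4a and 65.6 and 49.4 with Sall4b added back. Cd68, a lysosomal protein, had 2645 and 3321 in control, 1558 and 1793 in depleted, 2457 and 1931 with Sall4a and 1384 and 1432 with Sall4b added back. Both were thus below control on the depleted and Sall4b-only arrays, as Mmp12 was, with log2 differences of -1.42 and -2.38 for Csf1r (limma adjusted p = 0.611 and 0.186) and -0.83 and -1.07 for Cd68 (adjusted p = 0.409 and 0.129). In Sall4a-only cells they differed by -0.19 and -0.44 (adjusted p = 0.955 and 0.561). The remaining macrophage markers that passed the filter were mixed. Cd14 had log2 differences of -0.45 (depleted) and -0.31 (Sall4b-only), and Lyz2 of 0.040 and -0.016. Mrc1 went the other way, by 0.50 and 1.46, with arrays that overlapped those of control (limma adjusted p = 0.931 and 0.356). Trophoblast markers (14 on the array, of which 13 passed, with Elf5 present on 0 arrays) averaged -0.53 and -0.18 on the depleted, -0.14 and 0.075 on the Sall4a-only and -1.19 and -1.05 on the Sall4b-only arrays. Their summed intensity was 54290 and 70042 on the control, 38860 and 53484 on the depleted, 69271 and 71169 on the Sall4a-only and 33692 and 33659 on the Sall4b-only arrays. In Sall4a-only cells the members of that list went both ways, from -1.45 for Plac1 and -0.83 for Gata2 to 1.55 for Cdx2 (limma adjusted p = 0.338, 0.564 and 0.347). Primitive and parietal endoderm markers (15, all of which passed the filter) averaged -0.26 and -0.34 on the depleted, -1.19 and -0.77 on the Sall4a-only and -0.11 and -0.75 on the Sall4b-only arrays. Their summed intensity was 36443 and 41501 on the control, 36419 and 37160 on the depleted, 27272 and 33033 on the Sall4a-only and 38620 and 29970 on the Sall4b-only arrays. Against control, 14 of the 15 were negative with Sall4a added back, with a median of -1.02, against 0.035 over all genes. At an unadjusted p under 0.05 in limma there were 8 (8.84% of all genes), and 0 passed the threshold (0.00713% of all genes). All 15 were negative against depleted cells, with a median of -0.42, against 0.032 over all genes. In Sall4b-only against control cells, 9 of the 13 trophoblast markers had an unadjusted p under 0.05, beside 15.1% of all genes. Hnf4a, a hepatocyte and visceral endoderm factor, was at -1.43 and Gata6, a primitive endoderm factor, at -1.76 in Sall4a-only against control cells (adjusted p = 0.252 and 0.416). The part of macrophage, trophoblast or endoderm cells in the members' values was not tested.

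The 5 named genes whose profile over the 8 arrays lay closest to that of Mmp12 were Krt6a, Krtap4-16, Tcim, Hmga2-ps1 and Gkn1. Closeness was the mean absolute difference of mean-centred log2 values, which was 0.26 for Krt6a, a keratin of stressed epithelium, and 0.32 for Krtap4-16, a keratin-associated protein gene. Krt6a intensity was 342 and 450 in control, 134 and 129 in depleted, 54.6 and 55.2 with Sall4a and 75.8 and 48.3 with Sall4b added back. Krt6a was picked for closeness to Mmp12 on these same arrays, so their shared fall from control to depleted to add-back is no separate result. The values for Tcim, Hmga2-ps1 and Gkn1 were 0.39, 0.47 and 0.48, and Hmga2-ps1 is a pseudogene whose signal may come in part from Hmga2. Among the family, Mmp10 was closest to Mmp12 at 0.58 and ranked 16 of 14026 genes. Timp3 followed at 0.90 (rank 484) and Timp1 at 0.91 (rank 544), and Mmp2 at 1.36 was the farthest (rank 13603).

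Of 12 further MMP and TIMP genes on the array, 7 passed the detection filter, and 0 of the 7 passed the test in any of the 6 comparisons, in each of which at most 1 of all 14027 genes did. Their count at an unadjusted p under 0.05 against control was 1 for depleted, 0 for Sall4a-only and 3 for Sall4b-only cells, beside 7.92%, 8.84% and 15.1% of all genes. Mmp16, a membrane-type enzyme, had intensities of 122 and 92.7 in control, 291 and 184 in depleted, 62.6 and 86.7 with Sall4a and 48.7 and 57.2 with Sall4b added back. Depleted arrays were thus highest and add-back arrays lowest, with log2 differences from control of 1.12 (SE 0.28, limma adjusted p = 0.449), -0.53 (adjusted p = 0.654) and -1.01 (adjusted p = 0.215). The last is a bound, since both Sall4b-only arrays were called absent. A second Mmp16 probe set, present on all of these arrays, differed by 0.45, -0.14 and -0.20. Timp4, the remaining inhibitor of the family, had intensities of 22.3 and 23.2 in control, 22.9 and 20.5 in depleted, 22.8 and 26.4 with Sall4a and 50.5 and 60.2 with Sall4b added back. It was higher on both Sall4b-only arrays than on any other array, and at least 2.43-fold above control, where both arrays were called absent. This probe set was called present on both Sall4b-only arrays and Sall4a-only replicate 2 alone. It thus passed the filter only through the group where it was high, and nothing is read from its test or its place in the counts. Its other probe set, brighter but present on 1 array only, gave at least 1.55-fold. In Sall4b-only against control cells Mmp23 differed by 1.02 (adjusted p = 0.282) and Mmp17 by 0.64 (adjusted p = 0.348).

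Genes that act on or around MMPs passed 0 times, as nearly all genes did. Their counts at an unadjusted p under 0.05 against control stand beside 7.92% (depleted), 8.84% (Sall4a-only) and 15.1% (Sall4b-only) of all genes. None of the 7 measured genes of the plasminogen system and the proprotein convertases, which activate MMP precursors, passed in limma in any comparison. Their count at an unadjusted p under 0.05 was 0 for depleted, 0 for Sall4a-only and 1 for Sall4b-only cells. Plaur, the urokinase receptor, had intensities of 1199 and 2043 in control and 891 and 604 in Sall4b-only cells (log2 difference -1.09, SE 0.32, adjusted p = 0.232). Among 17 ADAM, ADAMTS and other surface regulators, 0 passed, and the counts were 0, 1 and 2 in the same order. Adamts1, which cuts proteoglycans, differed by -1.05 and -1.22 in the add-back groups, Sall4a-only first (adjusted p = 0.530 and 0.251), and Reck, a membrane-anchored MMP inhibitor, by 0.37 and 0.62 (adjusted p = 0.729 and 0.326).

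Among 16 measured matrix substrates, 0 passed and the counts at an unadjusted p under 0.05 were 1, 2 and 2, beside 7.92%, 8.84% and 15.1% of all genes. Their median difference from control was 0.23, -0.20 and 0.034 log2. Col3a1, a fibrillar collagen that also stands in the fibroblast list, had intensities of 1755 and 1028 in control, 2469 and 1966 in depleted, 49.9 and 375 with Sall4a and 137 and 158 with Sall4b added back. Its log2 differences of -3.30 and -3.19 in the add-back groups (SE 0.87) had adjusted p of 0.403 and 0.210. Elastin (Eln), the classical substrate of Mmp12, differed by 0.25 in depleted and 0.48 in Sall4a-only cells (limma adjusted p = 0.837 and 0.545). Its Sall4b-only arrays, at 134 and 102, overlapped control, at 112 and 96.3. Eln was called present on 5 arrays only.

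Of 14 AP-1, ETS and related transcription factors, 0 passed in limma in any comparison. Against control, negative differences numbered 12 for depleted, 10 for Sall4a-only and 12 for Sall4b-only cells, with medians of -0.31, -0.24 and -0.43 log2. The counts at an unadjusted p under 0.05 were 3, 2 and 6, again beside 7.92%, 8.84% and 15.1% of all genes. Atf3, a stress-induced partner of Jun proteins, had intensities of 3527 and 6112 in control, 1400 and 2136 in depleted, 4084 and 2395 with Sall4a and 1331 and 979 with Sall4b added back. It was lower in depleted and Sall4b-only cells (log2 differences -1.42 and -2.02, adjusted p = 0.487 and 0.157), while Sall4a-only replicate 1 lay within the control range. Fos, a subunit of AP-1, had intensities of 1871 and 2527 in control, 1565 and 1930 in depleted, 1623 and 1076 with Sall4a and 899 and 949 with Sall4b added back. Both add-back groups lay below control for Fos, by -0.72 (adjusted p = 0.499) and -1.24 (adjusted p = 0.161). Fosl1, another AP-1 subunit, had intensities of 171 and 264 in control and 106.4 and 106.1 in Sall4b-only cells (adjusted p = 0.214). In depleted cells the AP-1 genes Junb and Fosb differed by -0.71 and -0.63 (limma adjusted p = 0.492 and 0.583). Jund was 1 of 4 listed genes with a positive difference in Sall4a-only cells, at 12329 and 12605 against 10809 and 12251 in control. Both Sall4a-only arrays of Jun, at 3604 and 4226, lay within the control range of 3030 to 4754. A link of these factors to the MMP and TIMP values was not tested.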

How the data were processed

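Total RNA of CJ7 ES cells was amplified, labelled with biotin and hybridised to 8 arrays, per the labels' protocols. The authors deposited linear intensities for each probe set, and the submitters' processing notes name RMA (version not stated). The sources used here do not say how detection calls were made. All 3 deposited tables held the same values (0 differed). Array medians ran from 141 to 149.8 and 62.1% to 66.5% of probe sets were called present. Array number limits the precision.

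Of 45101 probe sets, 64 controls were dropped. The platform annotation at GEO gave 1 symbol for 34945 of the rest and several or none for the others, which were not tested. Probe sets present on at least 2 arrays were kept, and the brightest stood for its gene (14027 genes). The deposited intensities were taken to log2 with no further normalization. R 4.3.3 with limma 3.58.1 fitted 4 group means to all 8 arrays (lmFit, eBayes), with Benjamini-Hochberg adjustment over all genes per comparison and a threshold of 0.05. The test was checked on simulated data. Differences are log2 with the SE of the fit. A fold against a group with no present call is "at least": its dim values were set to no less than the array's lowest present intensity, which changed none of the Mmp12 folds.

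The 10 members and the lists were chosen with earlier results of these data known. Named genes are all members, up to 4 genes of each other list with the smallest p in a comparison, and the 5 genes of standard symbol most like Mmp12. Alternatives covered the arrays in the fit, the prior, the replicate number as a block, the detection filter, the probe set rule, the scaling and log2(intensity + 50).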

Additional observations from a re-analysis of the deposited data

How the results depend on the processing

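The number of members past the threshold kept its value in all 6 comparisons with a trended and robust prior, no detection filter, a filter of 4 arrays, the mean of all probe sets, repeated quantile normalization, median centring or log2(intensity + 50). In both add-back comparisons with control, the starting count of 1 was Mmp12, on whose fall the family was chosen. Whether Mmp12 stayed in or dropped out of these counts therefore says nothing about the family. The number of members past the threshold depended on which arrays were fitted. With only the compared groups in the fit, the count went from 1 to 0 in Sall4a-only against control, from 1 to 2 in Sall4b-only against control and from 0 to 2 in Sall4b-only against depleted cells. Without both Sall4a-only arrays the last 2 counts were also 2, and 121 and 66 of all genes passed in place of 1 and 0. Leaving out 1 array at a time, the counts ran from 0 to 3 (Sall4a-only against control), 0 to 2 (Sall4b-only against control), 0 to 5 (Sall4a-only against depleted) and 0 to 2 (Sall4b-only against depleted). They stayed at 0 in the other 2 comparisons. Leaving out either control or either depleted array gave 0 in both add-back comparisons with control, as did leaving out Sall4a-only replicate 1 in the first and either Sall4b-only array in the second. An array left alone in its group was assumed to vary like the other groups. For these array choices the cause was not tested beyond the fewer arrays and the changed spread.

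With the replicate block, 0 members passed in Sall4a-only and 1 in Sall4b-only against control. The replicate differences correlated at 0.57 between control and depleted arrays but from -0.12 to 0.20 in the other pairs of groups, so the numbers were not taken as pairing the samples. With the numbers of the Sall4b-only arrays exchanged, chosen after seeing the data, 0 members passed against depleted cells.

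The differences that changed sign did not pass with all 8 arrays, and of them Timp2 in Sall4a-only against depleted cells passed without Sall4a-only replicate 2. Leaving out 1 array at a time, those of Sall4a-only cells against control ran from -1.80 to 1.13 (Mmp2), -0.67 to 0.57 (Mmp14), -1.27 to 0.018 (Timp1) and -2.14 to 0.61 (Timp2), with the lowest value without Sall4a-only replicate 2 and the highest without replicate 1. Against depleted cells they ran in the same way from -2.25 to 0.68 (Mmp2), -0.34 to 0.099 (Mmp9) and -2.65 to 0.10 (Timp2). Between the add-back groups only Mmp2 and Mmp10 were followed in this way, with ranges of -2.71 to 0.22 and -0.24 to 1.10. Whether other members changed sign in that comparison was not examined. For Timp2 in Sall4b-only cells against control it was -0.18 to 0.41, by which control array was left out. Mmp2 and Mmp14 in Sall4a-only cells also reached 0.012 without a control array, and Mmp9 against depleted cells 0.031 without depleted replicate 2. With the mean of all probe sets, Mmp14 in Sall4a-only cells became 0.12 and Timp2 in Sall4b-only cells -0.20. With median centring, Mmp14 in Sall4a-only cells became 0.00038.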
